A study of Mus musculus with 6 samples.

Results

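The acetylcholine receptor of muscle and the proteins that gather it under the nerve terminal are encoded by a small group of genes, of which 9 were followed here: the receptor subunits CHRNA1, CHRNB1, CHRND, CHRNE and CHRNG, the clustering genes MUSK, DOK7 and RAPSN, and ACHE, the enzyme of the synaptic cleft. They were chosen by name, as every measured target called by any of these 9 names in upper or lower case, which gave 18 of the 45281 probes on the array. Of these 18 probes, 16 were detected well enough to be tested and 2 were not.

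The arrays measured RNA from C2C12 cells, an established line of mouse myoblasts that fuses into myotubes in low serum and is grown here without nerve cells. Myoblasts received 60 nM of a scramble siRNA (Scramble group, 3 arrays) or of an siRNA against *Dj1* (siDJ-1 group, 3 arrays), were switched to differentiation medium after 48 h and were harvested as myotubes after 4 days. The 6 samples lay on 1 Illumina BeadChip, where each probe is read on many beads and the value is their mean signal in arbitrary units. Between 16985 and 18179 probes were detected per Scramble array and between 18408 and 18857 per siDJ-1 array, a difference whose effect was not tested, and the standard error over beads of the 18 probes was 2.34 to 9.93% of their signal. Neither the labels nor the methods say how the 3 samples of a group were kept apart, so every p-value below measures only the spread between these samples, which may be technical.

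As background, the muscle receptor is a ring of 5 subunits, a pair of alpha subunits with beta and delta and, in the fetal form, gamma, which gives way to epsilon in the adult endplate. Agrin released by the nerve binds LRP4 on the muscle surface and switches on MuSK, a receptor tyrosine kinase that works with its adaptor Dok-7, and rapsyn holds the receptors in dense clusters. Myogenic factors of the MyoD family drive the subunit genes through E-boxes as myoblasts fuse, while ETS factors acting at an N-box are known for transcription by nuclei under the nerve.

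RefSeq windows of the 250 bases before the start of transcription were found for 7 of the 9 genes on the GRCm38.p6 build (8 windows, 2 of them for DOK7), and none is listed for CHRND and RAPSN. The 4 windows printed, those of CHRNA1, CHRNG, CHRNE and MUSK, are the ones that hold the E-box CAGCTG, and this choice was made with the matches in view. The script searched both strands for the E-box CANNTG, for its form CAGCTG, and for the N-box CCGGAA, and capitals mark every match. The windows lie at chr2:73580339-73580588 on the minus strand for Chrna1, chr1:87205561-87205810 on the plus strand for Chrng, chr11:70619195-70619444 on the minus strand for Chrne and chr4:58285712-58285961 on the plus strand for Musk, each upstream of the gene.
Chrna1: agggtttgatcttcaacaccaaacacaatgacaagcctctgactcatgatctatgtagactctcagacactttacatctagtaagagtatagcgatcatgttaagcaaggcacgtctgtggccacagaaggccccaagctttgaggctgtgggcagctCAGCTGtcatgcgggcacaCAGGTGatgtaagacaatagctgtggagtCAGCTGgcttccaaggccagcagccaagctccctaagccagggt
Chrng: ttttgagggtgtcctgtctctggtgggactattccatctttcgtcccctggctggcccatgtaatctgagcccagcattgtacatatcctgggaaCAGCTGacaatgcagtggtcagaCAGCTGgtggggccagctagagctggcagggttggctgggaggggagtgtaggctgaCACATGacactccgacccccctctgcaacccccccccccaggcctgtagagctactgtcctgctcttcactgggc
Chrne: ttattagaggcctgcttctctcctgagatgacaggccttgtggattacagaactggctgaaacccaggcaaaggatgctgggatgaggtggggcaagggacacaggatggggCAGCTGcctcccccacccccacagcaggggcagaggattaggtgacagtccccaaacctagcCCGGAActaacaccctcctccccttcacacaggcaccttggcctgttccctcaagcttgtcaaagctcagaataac
Musk: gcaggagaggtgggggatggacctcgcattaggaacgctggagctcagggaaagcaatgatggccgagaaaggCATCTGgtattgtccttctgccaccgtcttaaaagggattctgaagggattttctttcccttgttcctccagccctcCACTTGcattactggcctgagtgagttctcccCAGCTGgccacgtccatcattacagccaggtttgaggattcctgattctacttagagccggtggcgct

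The Chrna1 and Chrng windows each hold 3 E-boxes, of which 2 read CAGCTG, and neither holds the N-box. The Chrne window holds 1 E-box, also CAGCTG, and 1 N-box, and the Musk window holds 3 E-boxes with 1 CAGCTG. The windows not printed hold 3 E-boxes for CHRNB1, 1 for ACHE and 1 in the first of the 2 for DOK7. Neither CAGCTG nor the N-box occurs in any of these. The relation of these motifs to the changes in RNA was not tested. Among all 32851 windows of this length, 66.2% hold an E-box, 13% (4271 windows) hold CAGCTG, 1.26% hold it at 2 or more places and 12% (3952 windows) hold the N-box. A match is a description of the letters and not a binding site.

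The siRNA target was read first to check the labels. *Dj1* (Park7) gave Scramble signals of 12020, 10900 and 12251, while siDJ-1 signals were 5935, 6586 and 4234. Every siDJ-1 array lay below every Scramble array, and *Dj1* RNA fell by 1.16 on the log2 scale (SE 0.14, adjusted p = 0.00344), to 44.7% of the Scramble level.

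The label of differentiated myotubes was checked against its markers, and all 20 probes of the 14 myotube marker genes on the array passed the detection filter. Their brightest probe was that of Acta1, skeletal actin, with signals of 34796 to 43130 in Scramble and 36338 to 47807 in siDJ-1. The summed normalized signal of the 20 probes was 260267, 255729 and 255305 in Scramble and 206785, 219305 and 193045 in siDJ-1, so that the siDJ-1 arrays were the lower 3. On the deposited scale the sums were 247370, 258796 and 237962 against 214257, 249260 and 188024, and siDJ-1 replicate 2 exceeded Scramble replicates 1 and 3. Of the 20 probes, 11 fell and 0 rose after adjustment by limma (11 fell and 0 rose at an unadjusted p under 0.05), with a median log2 change of −0.42. Of all 17890 tested probes, 13.6% fell and 16.5% rose (19.2% and 23.6% unadjusted). When each array was only shifted to match the others at its 75th percentile, with no quantile step, 9 fell and 2 rose, and without siDJ-1 replicate 1, 7 fell. Under such a shift, 2123 of all 17890 tested probes fell and 3280 rose after background correction, and 2662 and 3629 without it. Without siDJ-1 replicate 1, 6.9% of all tested probes fell. Pax7, Myf5 and Bub1, which mark undifferentiated or cycling myoblasts, did not reach detection on 3 arrays, while Cdk1, the brightest of these markers, gave 1350 to 1635 in Scramble and 1616 to 2154 in siDJ-1 and was not called (0.30, adjusted p = 0.0713), while Pcna and 1 of 2 Ccnb1 probes fell. In a bulk RNA sample, fewer myotubes and less RNA of these genes per myotube cannot be told apart. The part of this marker change in the values of the receptor and endplate genes was not tested.

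Across the 16 tested probes of the receptor and endplate genes, 8 were called lower in siDJ-1 at an adjusted p under 0.05, against 13.6% of all 17890 tested probes, and 0 were called higher, against 16.5%. At an unadjusted p under 0.05, 12 of the 16 were lower and 0 higher, against 19.2% and 23.6% of all tested probes. The 8 calls fell in 7 of the 9 genes, namely CHRNA1, CHRNB1, CHRND, CHRNE, CHRNG, MUSK and ACHE. A gene counts here when any of its probes was called. Over the whole array, at most 2018 of the 12623 tested genes had a probe called lower. The log2 change was negative for 13 probes and positive for 3, all of RAPSN, with a median of −0.42 beside 0.05 over all tested probes. With arrays shifted to match at the 75th percentile, this median was −0.25 after background correction and −0.26 without it. Over all tested probes it was then 0.07 and 0.04. After normalization the groups did not overlap on 11 of the 16 probes, against 48.5% of all tested probes in either direction. On all 11 of them every siDJ-1 array was the lower one, as it was on 3931 of the 17890. When arrays were shifted to match at the 75th percentile, with no quantile step, the number called lower was 5 after background correction and 7 without it. The share of all tested probes called lower was then 11.9% and 14.9%. With no filter 5 of 18 were called lower, against 3.56% of all probes. Between 3 and 8 were called lower when any single array was left out, against 6.9 to 13.7% of all tested probes. The number reached 10 in other settings, where 16.4 to 20.4% of all tested probes were called lower.

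**Figure D1:**
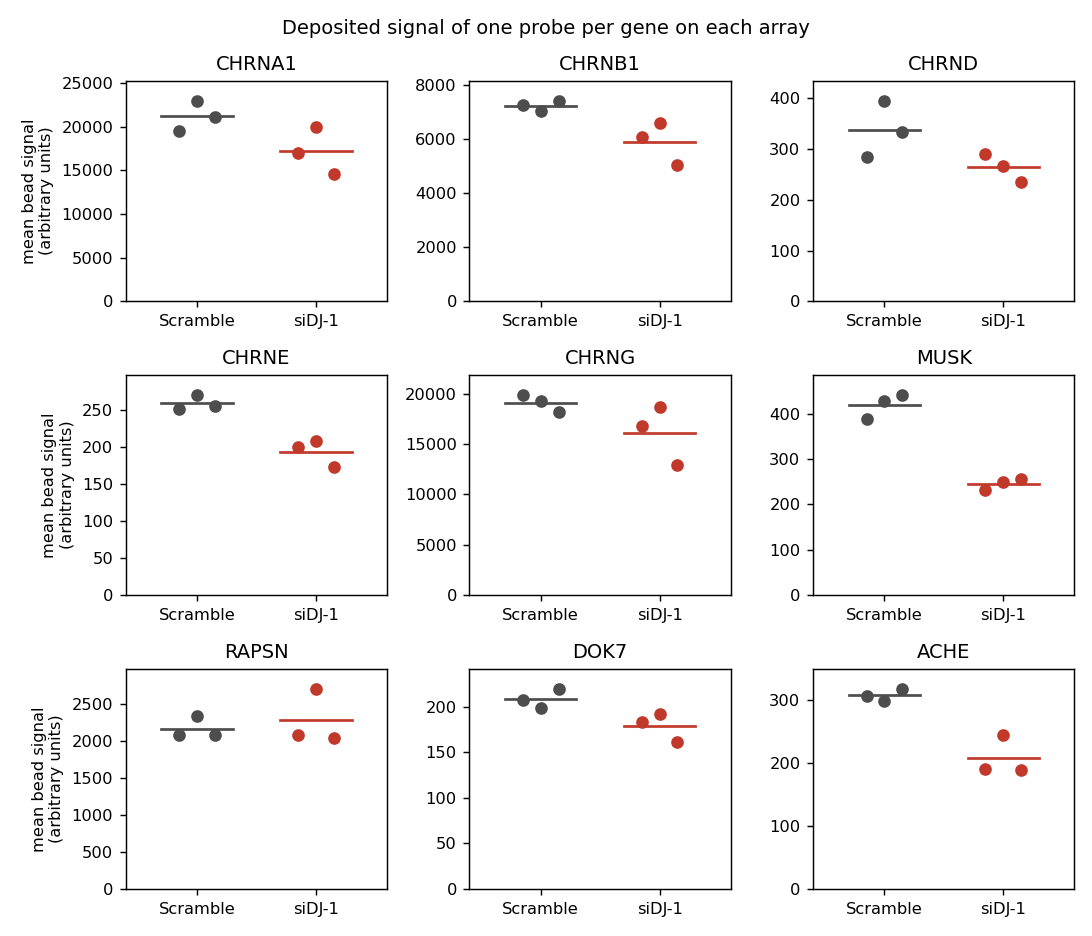
Deposited mean bead signal in arbitrary units on each of the 6 arrays (points) for the tested probe of each gene with the highest normalized signal, with the group mean as a line and every axis starting at 0. The groups do not overlap for CHRNB1, CHRNE, MUSK, DOK7 and ACHE, whereas the siDJ-1 points of RAPSN extend above and below its Scramble points.

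CHRNA1 encodes the alpha subunit, which carries most of the acetylcholine binding site and is present in every muscle receptor. Its probe ILMN_2733656 gave signals of 19605, 19058 and 17998 in Scramble and 14838, 15727 and 12650 in siDJ-1. The lowest Scramble array was above the highest siDJ-1 array. The log2 change was −0.45 (SE 0.09, adjusted p = 0.0146), which left 73.2% of the Scramble level (95% CI 62.8 to 85.4%). Without siDJ-1 replicate 1 or siDJ-1 replicate 3 the change was no longer called, with adjusted p-values of 0.0513 to 0.0526.

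A further CHRNA1 probe, ILMN_1245221, read 19547, 22953 and 21160 in Scramble and 17040, 19978 and 14558 in siDJ-1. On this deposited scale siDJ-1 replicate 2 reached above Scramble replicate 1, and after normalization the groups no longer overlapped. Its log2 change was −0.38 (SE 0.11, adjusted p = 0.0376), and the call was lost without Scramble replicate 2, Scramble replicate 3, siDJ-1 replicate 1 or siDJ-1 replicate 3 (adjusted p 0.0849 to 0.117). The dimmest CHRNA1 probe, ILMN_1239269, read 602.9, 636.9 and 644.7 in Scramble and 565.2, 592.8 and 545.6 in siDJ-1, without overlap. After normalization its groups overlapped, with a log2 change of −0.10 and an adjusted p of 0.542. The probes of this gene thus differ in whether they passed the threshold, and no difference between them was tested.

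CHRNB1 encodes the beta subunit, which the muscle receptor holds in its fetal and adult forms alike. Its brighter probe read 7265, 7044 and 7404 in Scramble and 6069, 6590 and 5030 in siDJ-1. All siDJ-1 arrays lay below all Scramble arrays, and siDJ-1 replicate 3 was the lowest. The log2 change was −0.36 (SE 0.09, adjusted p = 0.0310), and it stayed past the threshold only without Scramble replicate 2 among the 6 arrays left out in turn, with adjusted p-values up to 0.0960 (Scramble replicates 1 and 3 and each siDJ-1 replicate). The dimmer probe fell short of the threshold with a log2 change of −0.30 (adjusted p = 0.0639), although its normalized groups did not overlap.

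CHRND encodes the delta subunit, also common to both forms of the receptor. Both of its probes were dim, not far above the median over all probes, which was 152.3 to 167.4 on the 6 arrays. Probe ILMN_1229136 read 277.6, 300.9 and 319.7 in Scramble and 253.0, 238.5 and 195.2 in siDJ-1, with no overlap. Its log2 change was −0.73 (SE 0.20, adjusted p = 0.0336), and the call was lost without Scramble replicate 2, Scramble replicate 3, siDJ-1 replicate 2 or siDJ-1 replicate 3 (adjusted p 0.0669 to 0.103). Without background correction the change was −0.35, or −0.34 with the 75th percentile shift, and it was called in both settings. Probe ILMN_2662184 had a log2 change of −0.52 that missed the threshold (adjusted p = 0.112), and on it Scramble replicate 1 lay within the siDJ-1 range. Without background correction the change of this probe was −0.29.

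CHRNG encodes the gamma subunit of the fetal receptor, the form that cultured myotubes are known for. Its brighter probe, with signals of 19897, 19330 and 18162 in Scramble and 16765, 18646 and 12948 in siDJ-1, overlapped on the deposited scale, since siDJ-1 replicate 2 exceeded Scramble replicate 3. After normalization the groups separated, but the log2 change of −0.32 did not pass the threshold (adjusted p = 0.0619). The dimmer probe read 746.6, 654.3 and 693.9 in Scramble against 534.6, 553.6 and 463.0 in siDJ-1, with all siDJ-1 arrays lower. This probe fell by 0.47 on the log2 scale (SE 0.11, adjusted p = 0.0201), and lost its call without Scramble replicate 3 or without any of the siDJ-1 replicates 1, 2 and 3 (adjusted p 0.0540 to 0.0653).

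Other settings also ended calls of CHRNA1, CHRNB1 and CHRND. Shifting the arrays to match at the 75th percentile after background correction gave changes of −0.21 and −0.29 for ILMN_1245221 and ILMN_2733656 of CHRNA1 (adjusted p = 0.219 and 0.0545) and of −0.20 for the brighter CHRNB1 probe (adjusted p = 0.182). The same shift without background correction ended the call of ILMN_1245221 (−0.26, adjusted p = 0.0515). Without the detection filter, which adds dim probes to the adjustment, the adjusted p was 0.0856 for ILMN_1245221, 0.0724 for the same CHRNB1 probe and 0.0730 for ILMN_1229136 of CHRND. With the replicate number as a block in the fit, the adjusted p of these probes was 0.0655, 0.0740 and 0.0792. The direction stayed the same under all of these.

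CHRNE encodes the epsilon subunit, which replaces gamma at the mature endplate, and its upstream window is the one printed above with an N-box. Its single probe read 251.6, 270.9 and 256.5 in Scramble and 200.4, 209.0 and 173.0 in siDJ-1. The Scramble arrays sat close together and every siDJ-1 array was below them. CHRNE RNA fell by 0.96 on the log2 scale (SE 0.13, adjusted p = 0.00473), to 51.3% of the Scramble level (95% CI 41.1 to 64.0%). The call was kept under all 14 alternative settings, with changes from −1.05 to −0.37, the smallest without background correction. The mean deposited signals, 259.7 and 194.1, stand at 74.8% without any correction, so for this dim probe the size depends on how much of the signal is taken as background.

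Whether the subunits changed by unequal amounts was tested on the difference of log2 signals of 2 subunits within each array, each read by its brightest tested probe (for CHRND and CHRNG one that was not called), by a two-sided exact permutation test over the 6 arrays, whose smallest possible p with 3 against 3 is 0.1. In 3 of the 10 pairs the groups did not overlap, and all 3 involve CHRNE. From Scramble to siDJ-1, CHRNA1 minus CHRNE shifted by 0.58, CHRNB1 minus CHRNE by 0.60 and CHRNE minus CHRNG by −0.64 (exact p = 0.1 for each, 0.333 after Benjamini-Hochberg adjustment over the 10 pairs). For CHRND minus CHRNE the shift was 0.44 with overlapping groups (exact p = 0.2, adjusted 0.5). The 6 pairs among CHRNA1, CHRNB1, CHRND and CHRNG shifted by −0.20 to 0.16 and overlapped. Without background correction, 0 of the 10 pairs separated the groups after quantile normalization and 1 after the 75th percentile shift, so this separation depends on the correction. With other tested probes in place of the brightest, the groups stayed apart for CHRNE with CHRNA1 (0.51 to 0.86), CHRNB1 (0.60 to 0.66) and CHRNG (−0.64 to −0.50) under every choice. CHRND minus CHRNE shifted by 0.23 with the called CHRND probe, and the other 6 pairs ranged from −0.41 to 0.63, with separated groups only when CHRNA1 was read by its dimmest probe. With the mean of the tested probes of each subunit, 4 pairs separated, among them CHRND minus CHRNE (0.34, exact p = 0.1, adjusted 0.25).

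**Figure D2:**
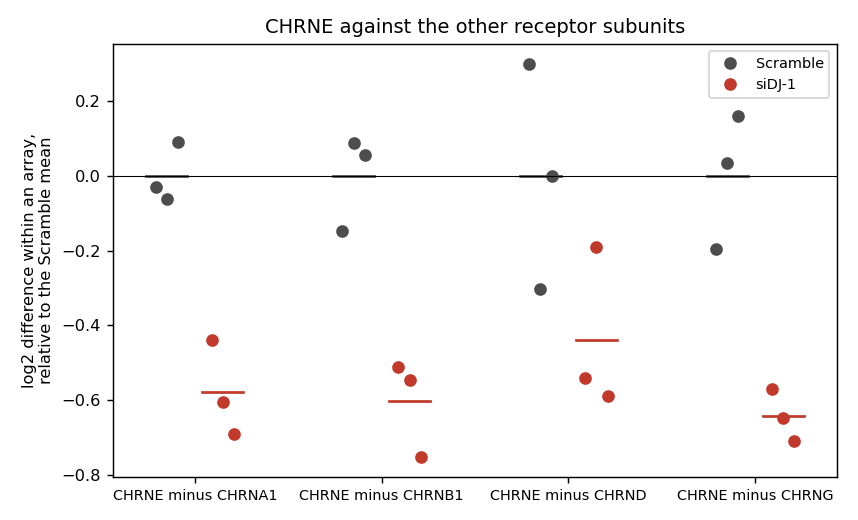
Log2 signal of CHRNE minus that of each other subunit, by its brightest tested probe, on every array (points), relative to the Scramble mean of the same difference, with group means as lines. The siDJ-1 arrays lie below all Scramble arrays for CHRNA1, CHRNB1 and CHRNG, and 1 siDJ-1 array lies within the Scramble range for CHRND.

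MUSK encodes the kinase that starts receptor clustering, and its change was the largest among the 16 probes with all 6 arrays in use. Without siDJ-1 replicate 2 it was −1.17 and that of ACHE −1.36, and without Scramble replicate 2 the 2 were alike (−1.25 each). Its tested probe read 387.9, 428.6 and 441.1 in Scramble and 230.9, 250.1 and 255.5 in siDJ-1. The gap between the groups was wider than the range of either group. MUSK RNA fell by 1.24 on the log2 scale (SE 0.20, adjusted p = 0.00664), to 42.3% of the Scramble level (95% CI 30.6 to 58.5%), and was called under all 14 alternatives (−1.44 to −0.71, the smallest without background correction). The other MUSK probe, drawn from a different transcript record, read 144.4 to 174.2, was detected on 0 Scramble and 2 siDJ-1 arrays and was not tested.

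DOK7 encodes the cytoplasmic adaptor that MuSK needs for its activity. Its probe was barely above background, with signals of 207.5, 198.9 and 219.9 in Scramble and 183.3, 192.3 and 161.4 in siDJ-1, and it was detected on 3 and 2 of these arrays. The groups did not overlap, but the log2 change of −0.55 (SE 0.21, 95% CI −1.05 to −0.05) missed the threshold with an adjusted p of 0.0914. Without background correction the change was −0.18, or −0.17 with the 75th percentile shift (adjusted p = 0.143 and 0.171 by limma).

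RAPSN encodes rapsyn, the scaffold that binds receptors from inside the membrane. Its brightest probe read 2085, 2334 and 2079 in Scramble and 2086, 2708 and 2040 in siDJ-1, so the lowest and the highest array were both siDJ-1. All 3 RAPSN probes were detected on every array and overlapped between groups. Their log2 changes were 0.05, 0.10 and 0.03, with 95% CIs of −0.21 to 0.31, −0.17 to 0.37 and −0.34 to 0.40 and adjusted p-values of 0.757, 0.555 and 0.893. Small changes in either direction lie within these intervals, and the difference between RAPSN and the members that were called was not tested.

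ACHE encodes acetylcholinesterase, which ends transmission by splitting acetylcholine in the cleft. Its detected probe read 305.1, 297.6 and 317.3 in Scramble and 189.6, 243.5 and 188.2 in siDJ-1. The Scramble arrays were alike, whereas siDJ-1 replicate 2 stood above the other siDJ-1 arrays yet below every Scramble array. ACHE RNA fell by 1.17 on the log2 scale (SE 0.21, adjusted p = 0.00948), to 44.5% of the Scramble level (95% CI 31.5 to 62.9%), and was called under all 14 alternatives (−1.36 to −0.52, the smallest without background correction). The second ACHE probe was detected on 0 of the 6 arrays and was not tested.

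**Figure D3:**
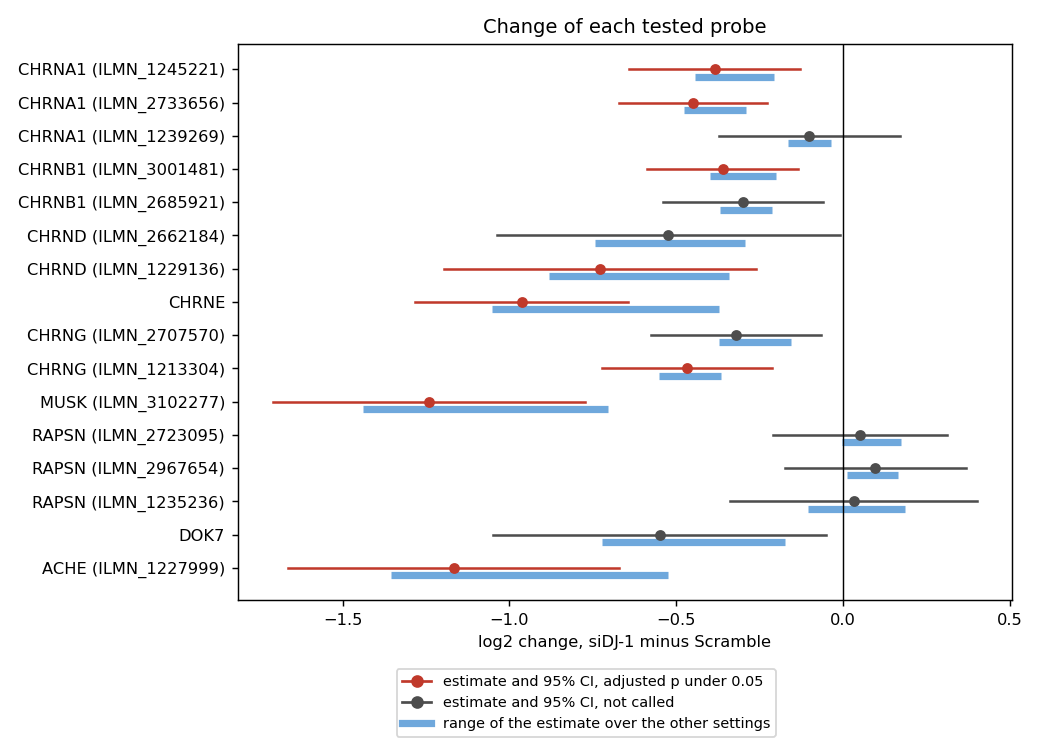
Log2 change from Scramble to siDJ-1 of each of the 16 tested probes (points) with its 95% CI from limma (thin lines) and the range of the estimate over the alternative settings (thick bars). MUSK, ACHE and CHRNE lie farthest from 0, while the intervals of all 3 RAPSN probes include 0.

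Averaging the tested probes of each gene before the test gave the same genes as called: the adjusted p was 0.0299 for CHRNA1, 0.0309 for CHRNB1, 0.0405 for CHRND and 0.0200 for CHRNG, with log2 changes of −0.31, −0.33, −0.63 and −0.39. For RAPSN the mean of its probes changed by 0.06 (adjusted p = 0.705).

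By root mean square distance of centred log2 signals over the 6 arrays, the probes most like the brightest CHRNA1 probe were those of Gpx1 (0.0232) and Fam98a (0.0331), where the median distance to all tested probes was 0.328. Those most like MUSK were a target named GUS-S (0.0988) and Srsf5 (0.101), with a median distance of 0.712. These distances describe the 6 arrays and nothing beyond them.

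The partners of these members were counted in lists of related genes, beside which 16.5% of all tested probes rose and 13.6% fell, with a median log2 change of 0.05. Of the 11 other nicotinic receptor subunits, only 2 of 24 probes were tested, for Chrna10 and Chrna7, and 0 were called in either direction by limma (0 also at an unadjusted p under 0.05). The probe with the highest mean of the 24, for Chrna10, read 167.6 to 251.6, and on 4 of the 6 arrays another probe of the list exceeded it, up to 341.6 for Chrnb3 on Scramble replicate 1. Without Scramble replicate 3, 1 probe of the list was called lower. By contrast, all 10 probes of the muscle subunits were detected on each of the 6 arrays.

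In the list of agrin to MuSK signalling, 5 of 34 tested probes rose (14.7%) and 6 fell (17.6%), with a median log2 change of 0.03. The rises numbered at most 1 without any single siDJ-1 replicate (1, 2 or 3), 3 without Scramble replicate 2 and 2 with no filter, and the falls 3 without Scramble replicate 2 or 3 or siDJ-1 replicate 1 or 3. Agrn, the ligand, rose by 0.36 on the log2 scale (SE 0.10, adjusted p = 0.0376), a call made in 7 of 14 alternatives, with adjusted p-values up to 0.117. Lrp4, the agrin receptor that pairs with MuSK, fell by 0.51 (SE 0.10, adjusted p = 0.0131) and was called in 14 of 14. The largest changes were in 1 of the 4 probes of Cttn, the actin regulator cortactin (−1.14, adjusted p = 0.00953), while another Cttn probe rose by 0.44 (adjusted p = 0.0184) and the other 2 were not called. A probe of the adaptor Crk, detected by no Scramble array, was called higher in siDJ-1, and a probe of the kinase Fyn, detected by no siDJ-1 array, was called lower there. After background correction the differences were 1.35-fold and 1.55-fold, each against, per array, the higher of the probe's own signal and the lowest signal of a detected probe. Both values depend on the correction and neither is a lower bound. Without it the log2 changes were as small as 0.28 and −0.24, and the mean deposited signals of the 2 groups differed 1.19-fold for Crk and 1.23-fold for Fyn. A second dim Crk probe rose by 0.74 (adjusted p = 0.0383), and the bright one was not called (−0.03, adjusted p = 0.849). The remaining calls were a rise of Hsp90b1, a chaperone (0.41, adjusted p = 0.0285), and falls of 3 probes of the phosphatase Ptpn11 (−0.48, −0.51 and −0.46, adjusted p = 0.0420, 0.0157 and 0.0322).

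Of the genes tied to synaptic transcription, 5 of 22 tested probes rose and 5 fell (22.7% each), with a median of −0.04. At most 3 rose without any one of the 6 arrays and 1 with no filter, and 3 fell without siDJ-1 replicate 1, 2 or 3. Both probes of Etv5, an ETS factor linked to the N-box, fell, by 0.98 and 0.79 (adjusted p = 0.0160 and 0.0191), each called in 12 of 14 alternatives. Egr3, known for its part in muscle spindles, fell by 2.22 (SE 0.14, adjusted p = 0.00224) and Camk2b, a calcium-dependent kinase of muscle, by 1.18 (adjusted p = 0.00365). The probes of Gabpa, another ETS factor, disagreed, with a log2 change of 0.77 (adjusted p = 0.0470, called in 7 of 14 alternatives) on one and of −0.37 (adjusted p = 0.116) on another. The other rises were those of both tested probes of Gabpb1, which pairs with Gabpa in the N-box factor GABP (0.93 and 0.72, adjusted p = 0.0450 and 0.0251, called in 7 and 10 of 14 alternatives), and both of Camk2g (0.78 and 0.59, adjusted p = 0.0269 and 0.0141, called in 10 and 12 of 14). The remaining fall was that of a Camk2a probe (−0.64, adjusted p = 0.0238, called in 5 of 13). Erbb2, a neuregulin receptor, changed by 0.15 (adjusted p = 0.406) and the tested Nrg1 probes by 0.02 and −0.12 (adjusted p = 0.956 and 0.827), while Erbb3 and Erbb4 were not detected on any array.

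Among the myogenic E-box factors and their partners, 1 of 20 tested probes rose (5%) and 8 fell (40%), with a median of −0.14. The rise was that of Snai1 (0.54, adjusted p = 0.0326), and no rise was called with no filter or without Scramble replicate 1 or 2 or siDJ-1 replicate 1 or 3. The falls numbered 5 with no filter and without Scramble replicate 3 or siDJ-1 replicate 2 or 3. The 3 largest changes were those of Mef2c, a partner of the MyoD family, at −2.61, −2.48 and −2.37 (adjusted p = 0.00277, 0.00308 and 0.00277). Myod1 fell by 0.90 (SE 0.10, adjusted p = 0.00317), called in 14 of 14 alternatives, and Myf6 by 0.66 (adjusted p = 0.0243), called in 7 of 13. The other falls were those of Id3 (−1.40, adjusted p = 0.00494, called in 14 of 14) and Id1 (−0.57, adjusted p = 0.0260, called in 7 of 14), known as inhibitors of E-box factors, and of another Mef2c probe (−0.52, adjusted p = 0.0421). Both probes of Myog, myogenin, overlapped between groups with changes of 0.22 and −0.11 (adjusted p = 0.212 and 0.432). Myf5 was detected on 1 array of each group and was not tested. The name Tcf3 matched 2 probes that belong to Tcf7l1, which is not an E-box factor; 1 of them was tested, counts among the 20 and was not called.

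In the list of the endplate scaffold and basal lamina, 13 of 37 tested probes rose (35.1%) and 3 fell (8.11%), with a median log2 change of 0.26. Without siDJ-1 replicate 1 or 3, 7 rose and 1 fell, with no filter 8 rose, and with a trend in the prior variance 5 fell. NID1, a basement membrane linker, rose by 1.44 on one probe (SE 0.25, adjusted p = 0.00902) and by 0.84 on another (adjusted p = 0.00513). Hspg2, perlecan, which anchors acetylcholinesterase, had a dim probe that fell by 1.58 (adjusted p = 0.00286) and 2 bright probes, of which one rose by 0.38 (adjusted p = 0.0368) and the other was not called (0.33, adjusted p = 0.0723), so its probes disagreed. Ank3, an ankyrin of the sodium channel domain, fell by 1.42 on one probe (adjusted p = 0.0233, called in 12 of 14 alternatives) and read 0.45 on another (adjusted p = 0.0590). The remaining fall was that of a probe of Nes, nestin (−0.46, adjusted p = 0.0317). Utrn, utrophin, rose by 0.90 on one probe (adjusted p = 0.0188) and read 0.48 on another (adjusted p = 0.152). The other rises were those of Sntb2 probes (1.35, 0.84 and 0.83) and of a probe each of Dtna (1.19), Itga3 (0.83) and Lama5 (0.78). Further rises were in a probe each of Ncam1 (0.61), Nid2 (0.38) and Col4a5 (0.48, detected on no Scramble array). Their adjusted p-values by limma were 0.00416 to 0.0483. Other tested probes of Dtna, Ncam1 and Col4a5 were not called. Colq, the collagen tail of acetylcholinesterase, was detected on 0 arrays. In the list of receptor assembly and glycosylation, 2 of 9 tested probes rose, both of Alg2 (0.67 and 0.55, adjusted p = 0.00855 and 0.0135), and 0 fell (0 also at an unadjusted p under 0.05 by limma), with a median of −0.02. Without siDJ-1 replicate 3, 1 rose and 1 fell in this list.

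**Figure D4:**
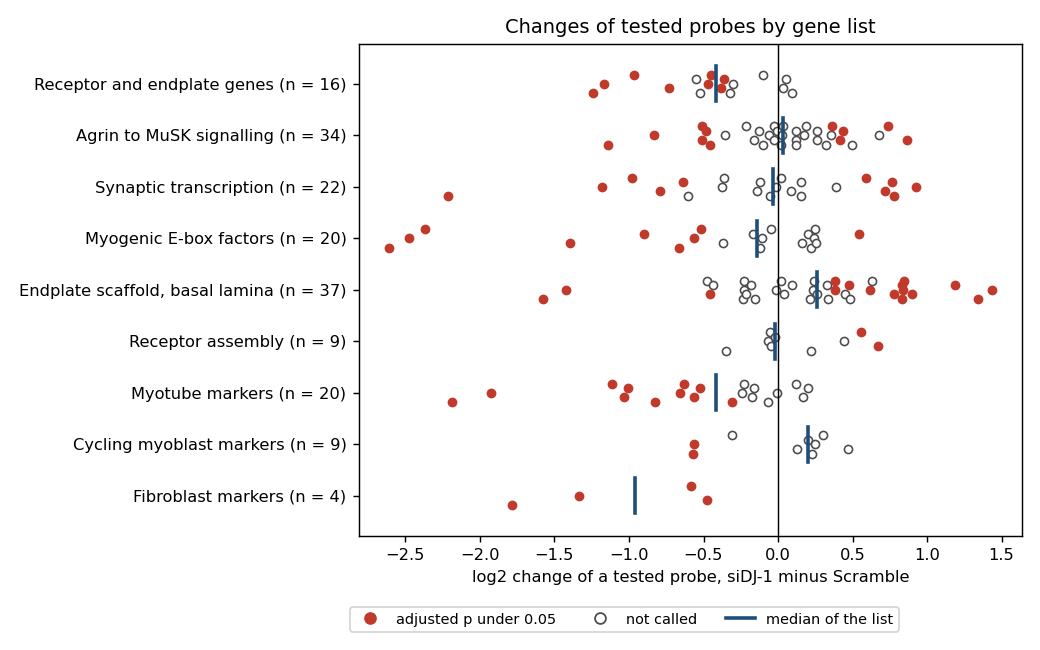
Log2 change from Scramble to siDJ-1 of every tested probe (points, filled where the adjusted p was under 0.05) by gene list, with the median of each list as a bar. The receptor and endplate genes and the myotube markers share a median of −0.42, and the endplate scaffold list has a median of 0.26.

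Markers of other cells were read beside these values. The largest falls among the myotube markers were those of Myh1 (−2.19 and −1.92, adjusted p = 0.00284 and 0.00304) and Myh8 (−1.11, adjusted p = 0.0142), the adult fast and perinatal myosins, whereas Acta1 (−0.01, adjusted p = 0.977) and Myh3, embryonic myosin (−0.17, adjusted p = 0.290), were not called. Of the cycling myoblast markers, 0 of 9 tested probes rose by limma (3 were higher with p under 0.05 before adjustment, and up to 2 were called higher in other settings), while 2 fell, Pcna by 0.57 (adjusted p = 0.00916) and one Ccnb1 probe by 0.57 (adjusted p = 0.0161), with a median of 0.20. Only 1 of these fell without siDJ-1 replicate 1 or 3. All 4 tested probes of the fibroblast markers fell (2 without Scramble replicate 3 or siDJ-1 replicate 1 or 3, with no filter, or after background correction with the 75th percentile shift), with a median of −0.96, led by Dcn at −1.79 and −1.34 (adjusted p = 0.00580 and 0.00598). The Pdgfra probe changed by −0.58 (adjusted p = 0.0493 by limma) and was called in 6 of 14 alternatives. Their summed normalized signal was 10637, 10259 and 9630 in Scramble and 4979, 6015 and 4378 in siDJ-1. The mean log2 signal of the brighter tested Dcn probe was 12.23 in Scramble and 10.89 in siDJ-1. That of the Col1a1 probe was 11.42 in Scramble and 10.95 in siDJ-1. Levels of different probes cannot be ranked as levels of RNA. Lum, Tcf21 and Thy1 did not reach detection on 3 arrays. Decorin and collagen are also made by muscle cells, and the part of these genes in the values of the receptor and endplate genes was not tested.

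Among the motor neuron markers only Stmn2 was tested, with signals of 463.6 to 533.4 in Scramble and 701.7 to 803.6 in siDJ-1, and it was 0.91 higher in siDJ-1 (SE 0.11, adjusted p = 0.00383), whereas Chat, Slc18a3, Slc5a7, Isl1 and Mnx1 did not reach detection on 3 arrays. Of the Schwann cell and endothelial markers, 0 of 10 and 0 of 6 probes were tested, and the only tested leukocyte probe, for Cd68, was not called (0.52, adjusted p = 0.169) except without Scramble replicate 2 (0.83).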

How the data were processed

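Signals of 3 Scramble and 3 siDJ-1 arrays were compared. The authors scanned the BeadChip, quantified it in GenomeStudio and deposited, per probe and array, an intensity (mean bead signal) with its standard error, the bead number and a detection p-value. The deposited intensity values were neither normalized nor background-subtracted. In R 4.3.3 with limma 3.58.1, background was corrected by normexp using the detection p-values (offset 16), and signals were quantile normalized and taken to log2. A probe was tested when 3 or more of the 6 arrays gave it a detection p below 0.05, which held for 17890 probes. The moderated test of limma (lmFit, eBayes) was run on these, with Benjamini-Hochberg adjustment across the whole set and a threshold of 0.05. Fold changes of dim probes are reduced by the offset. Of 45281 probes, 32345 were named through RefSeq and the rest kept the name in the file. The pipeline was tested on simulated data.

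The members and the lists were chosen with earlier results of these data known. From each list, the text names the 3 called probes of largest change that were detected throughout at least 1 group, plus direct ligands, receptors and transcription factors of the members. Other Cttn, Crk, Nid1, Hspg2 and Ank3 probes, Acta1, Myh3, Cdk1, Cd68, Chrna10, Chrna7, Chrnb3, Snai1, Gabpb1, Camk2a, Camk2g, Id1, Id3, another Mef2c probe, Hsp90b1, Ptpn11 and Nes were named after their values were seen. So were Sntb2, Dtna, Itga3, Lama5, Ncam1, Col4a5, Nid2 and Col1a1. Alternatives covered background, offset, scaling, filter, variance prior, replicate block, probe averaging and each array left out. Counts over the lists under these settings, and subunit pairs with other probes, were added after seeing the data. The number of arrays limits the precision.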

Additional observations from a re-analysis of the deposited data

How the results depend on the processing

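The signs of the 13 negative changes held under every alternative, and CHRNE, MUSK and ACHE were called in all 14 of them. The number of receptor and endplate probes called, all of them lower, was 8 in the reported setting, 5 after background correction with a shift to a common 75th percentile, 5 with no filter, 5 with the replicate number as a block (replicate block, where ILMN_1245221, ILMN_3001481 and ILMN_1229136 were not called), 7 with the 75th percentile shift and no background correction, 9 with an offset of 50, 10 with no background correction, with the stricter filter and with a trend in the prior variance, and 3 to 8 with 1 array left out. With the replicate block, 2 agrin to MuSK probes and 3 synaptic transcription probes rose and 2 fibroblast probes fell. Over the whole array, 5387 probes were called, 3519 with no filter, where more probes were tested, 4350 with the replicate block, up to 6470 in other settings (a trend in the prior variance) and 2444 to 5302 with 1 array left out, where fewer samples were fitted. The share of all tested probes called lower was 13.6% in the reported setting, 3.56% with no filter and 11.1% with the replicate block. It was 20.4% with the stricter filter and 6.9 to 13.7% with 1 array left out. Samples with the same number had deviations that correlated at 0.054, 0.047 and 0.020, all near 0. Each array correlated best with its own number, but the labels state no pairing and pairing was not tested. Pairs of subunits whose groups did not overlap numbered 3, but 0 without background correction, 1 without background correction and with the 75th percentile shift, 4 with the mean of the probes and 3 to 6 with 1 array left out. RAPSN reversed on 2 probes with 1 array left out, to −0.11 without Scramble replicate 1 (ILMN_1235236, range −0.11 to 0.19) and to −0.0039 without siDJ-1 replicate 2 (ILMN_2723095, range −0.0039 to 0.12), and neither was called. The cause of the other shifts was not tested. CHRND, CHRNE, MUSK, DOK7 and ACHE read not far above the median signal of the arrays, so their size depends most on the background.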
